A study of Mus musculus with 13 samples.

Results

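The matrix remodelling genes described here are 9 of the 24421 genes counted in the deposited RNA-seq tables and were chosen by symbol as proteases of the matrix, their inhibitors, lysyl oxidases and an inhibitor of mineralization. They are Mmp2, Mmp14, Timp1, Timp2, Timp3, Lox, Loxl1, Loxl2 and Mgp, and each had at least 355 reads in every library. The cells were F1-2.1, female mouse ES cells of CAST/Ei x 129/Sv/Jae origin that grow over γ-irradiated mouse embryonic fibroblast (MEF) feeders. All libraries came from 1 clone, A2, in which a Tet-on transgene makes CTCF S224E, a form of the chromatin protein CTCF with glutamate in place of a serine that can be phosphorylated, when doxycycline (dox) is present. In S224E +dox the clone was grown for 6 days with 1 μg/mL dox and in S224E −dox it was grown without dox, with 2 libraries in each group, and both groups carried the transgene and were grown on feeders. The comparison asks how gene expression differs when the phosphomimetic protein is made. RNA of cells given dox but lacking the transgene was not analysed here, so dox itself and S224E cannot be told apart as sources of a change. The study calls the 2 libraries of a group biological replicates, and p-values measure only the spread between them.

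The extracellular matrix is built, cross-linked and cut by secreted enzymes. Matrix metalloproteinases (MMPs) cut collagens and other matrix proteins, and tissue inhibitors of metalloproteinases (TIMPs) bind the catalytic site of MMPs and block it. Lysyl oxidases oxidize lysine residues of collagen and elastin, which lets the fibres cross-link, and matrix Gla protein (Mgp), which is carboxylated in a vitamin K-dependent reaction, inhibits mineralization. Fibroblasts are a well known source of all of these proteins, and the feeder layer is made of fibroblasts.

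Counted reads ran from 22899107 to 30206085 per library. Ctcf, whose transgenic and endogenous reads are counted together, had 327 and 329 CPM (the count scaled to a common library size by TMM) with dox and 295 and 304 CPM without dox, a log2 fold change of 0.13 ± 0.09 (SE) with an adjusted p of 0.475 in edgeR's quasi-likelihood test with Benjamini-Hochberg adjustment. The ES cell markers summed to 6220 and 7039 CPM with dox and to 5554 and 5999 CPM without it. S224E +dox replicate 1 stood apart from the other libraries in the genes described here. The 9 genes together had 1040 CPM in +dox replicate 1, 405 CPM in +dox replicate 2, 361 CPM in −dox replicate 1 and 332 CPM in −dox replicate 2. The fitted change of each of the 9 genes is therefore given with and without that library. In the same order, 30 fibroblast marker genes summed to 3736, 1733, 1382 and 1511 CPM, and 4 genes of the Y chromosome, which the female ES line lacks, summed to 10.3, 3.28, 2.46 and 2.67 CPM. Which cells made the marker RNA was not tested. In these bulk samples, more fibroblasts, more RNA per fibroblast and marker expression by other cells cannot be told apart.

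Of the 9 genes, 8 had a fitted log2 fold change above 0 with dox, with a median of 0.94, against a median of 0.00 over 13911 expressed genes, as genes that averaged 1 CPM or more over the 4 libraries are called here. At an adjusted p under 0.01, the threshold of the study, edgeR's quasi-likelihood test called 1 of them higher, Mgp, and 0 lower, while it called 0.0798% of all 20044 genes tested higher and 0.519% lower. DESeq2 also called 1 of them higher, Timp1, and 0 lower, against 0.853% and 1.86% of the 13826 genes to which it gave an adjusted p. At an unadjusted p under 0.05, edgeR's test had 6 of the 9, all higher, against 8.48% of all genes tested that were higher at that level. In 5 of the 9 genes both +dox libraries lay above both −dox libraries, and in 0 they lay below both, while 26.1% of expressed genes had the first arrangement and 27.7% the second. Without +dox replicate 1 the median log2 fold change of the 9 genes was 0.17, and without +dox replicate 2 it was 1.43.

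**Figure D1:**
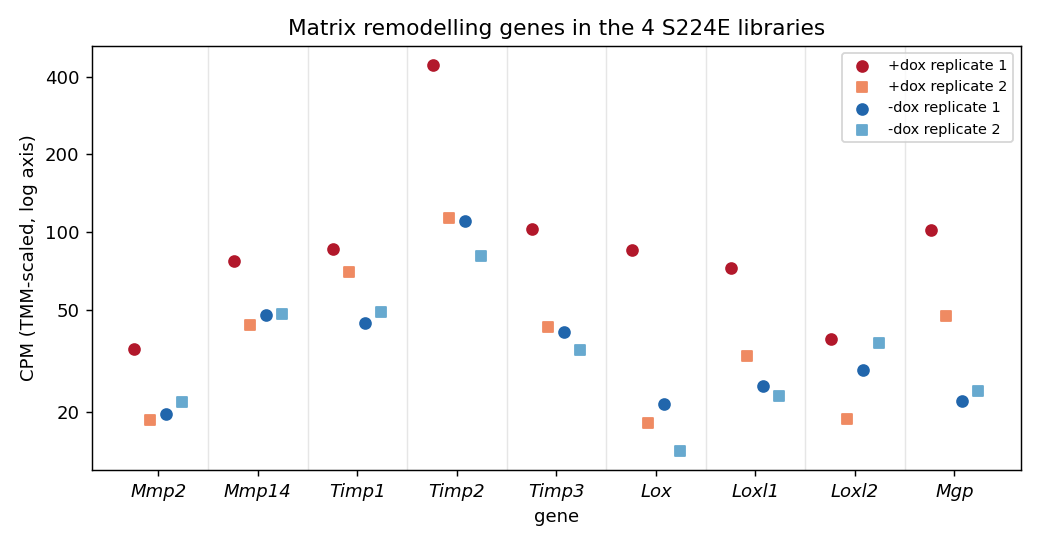
CPM of each of the 9 genes (log axis) in the 4 S224E libraries, with 1 point per library, circles for replicate 1 and squares for replicate 2. The +dox replicate 1 point is the highest of the 4 for every gene, and for Mgp and Timp1 the +dox replicate 2 point also stands clear of both −dox points.

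Mgp was the gene with the largest fitted increase of the 9. It lies on the minus strand of chr6:136820956-136824326 (mm9) in 4 exons, with no other annotated gene within its span. Its level was 102 CPM in +dox replicate 1, 47.2 CPM in +dox replicate 2, 22.1 CPM in −dox replicate 1 and 24.2 CPM in −dox replicate 2. Both +dox libraries were above both −dox libraries, which lay close together, and +dox replicate 1 was more than 2-fold above +dox replicate 2. The log2 fold change was 1.69 ± 0.26 (SE, 95% interval 1.12 to 2.26), with an adjusted p of 0.00564 in edgeR's quasi-likelihood test and of 0.0334 in DESeq2, so the second tool did not call it. Without +dox replicate 1 the log2 fold change was 1.03 with an adjusted p of 8.47e-08 in edgeR's test, and without +dox replicate 2 it was 2.14 with 1.35e-43. Without −dox replicate 1 it was 1.63 and without −dox replicate 2 it was 1.76, with adjusted p of 0.550 and 0.670 in edgeR's test, and these fits called 0 genes in all, with 1753 and 1450 at an unadjusted p under 0.05. Each of these fits takes the spread from the group that keeps 2 libraries and assumes that the lone library varies alike.

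The inhibitors Timp1, Timp2 and Timp3 are small secreted proteins encoded by separate genes, and Timp3 differs from the others in binding to the matrix. Timp1 (chrX:20447292-20451863, plus strand, mm9) lies within an intron of Syn1 on the opposite strand, and Timp2 (chr11:118162375-118216725, minus strand) holds the gene BC100451 in its span on the same strand. Timp3 (chr10:85763157-85812250, plus strand) lies within Syn3, and 1733 bases of its exons are shared with exons of Syn3 on the opposite strand. The library kit kept the strand of the RNA, and whether strand entered into the counting is not given in the sources used here. Syn3 had between 1.02 and 1.67 CPM in the 4 libraries, against 34.9 to 102 CPM for Timp3. For Timp1, the tables of replicate 1 and replicate 2 name different RefSeq transcripts of the gene.

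The 100 bases before the start of 4 of the 9 genes are shown, which are those with a RefSeq promoter window, to set the starts of the 3 inhibitor genes beside each other and beside that of a protease. The sequences are from RefSeq (GRCm38.p6, a later build than the mm9 of the counts), are read along the gene's strand from 5′ to 3′, and carry in capitals the GC box GGGCGG on either strand.
Timp1: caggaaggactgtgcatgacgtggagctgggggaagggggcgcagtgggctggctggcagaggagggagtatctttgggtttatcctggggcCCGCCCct
Timp2: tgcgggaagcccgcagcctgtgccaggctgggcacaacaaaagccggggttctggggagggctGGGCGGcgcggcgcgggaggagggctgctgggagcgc
Timp3: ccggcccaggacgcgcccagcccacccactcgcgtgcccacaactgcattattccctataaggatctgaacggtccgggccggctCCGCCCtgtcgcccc
Mmp14: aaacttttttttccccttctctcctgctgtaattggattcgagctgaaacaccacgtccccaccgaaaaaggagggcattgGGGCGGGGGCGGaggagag
They lie at chrX:20870066-20870165 on the plus strand, chr11:118355412-118355511 on the minus strand, chr10:86300312-86300411 on the plus strand and chr14:54431498-54431597 on the plus strand. In the 250 bases before the start, Timp1, Timp2 and Timp3 hold 1 GC box each and Mmp14 holds 2, and 32.7% of all 32851 RefSeq promoter windows hold at least 1. None of the 4 holds TATAAA or the AP-1 motif TGANTCA on either strand in those bases, against 12.4% and 6.75% of all windows. The G and C content of the 250 bases is 54.4% for Timp1, 68% for Timp2, 65.6% for Timp3 and 55.2% for Mmp14. These letters are a description of the windows and say nothing of which factor is bound. Of the other 5 genes, Mgp, Mmp2, Lox, Loxl1 and Loxl2 were not matched.

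Timp1 was the inhibitor, and the gene of the 9, whose difference between the groups varied least between the replicates. Its level was 85.6 and 69.9 CPM in +dox replicates 1 and 2 and 44.3 and 48.9 CPM in −dox replicates 1 and 2. The groups did not overlap, and the +dox libraries differed from each other by less than either differed from the −dox libraries. The log2 fold change was 0.74 ± 0.13 (SE, 95% interval 0.46 to 1.01), with an adjusted p of 0.0110 in edgeR's quasi-likelihood test, just over the threshold, and of 8.99e-05 in DESeq2, which called it. When +dox replicate 1 was left out, the log2 fold change of Timp1 was 0.58 with an adjusted p of 0.00239 in edgeR's test, and it lay between 0.67 and 0.88 when each other library was left out.

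Timp2 was the gene with the most reads of the 9, and its +dox libraries differed most in CPM, while Lox differed by the larger factor. It had 443 CPM in +dox replicate 1 but 114 CPM in +dox replicate 2, beside 110 and 80.3 CPM in −dox replicates 1 and 2. The +dox libraries lay above the −dox libraries, but +dox replicate 2 was within 4 CPM of −dox replicate 1. Its log2 fold change of 1.55 ± 0.41 (SE) came with an adjusted p of 0.0692 in edgeR's quasi-likelihood test and 0.345 in DESeq2. The change was 0.25 without +dox replicate 1, with an adjusted p of 0.265 in edgeR's test.

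Timp3 had the same arrangement at a lower level. It had 102 and 42.7 CPM in +dox replicates 1 and 2 and 40.9 and 34.9 CPM in −dox replicates 1 and 2. Here too +dox replicate 2 lay next to −dox replicate 1. Its log2 fold change of 0.94 ± 0.28 (SE) came with an adjusted p of 0.0990 in edgeR's quasi-likelihood test, and was 0.17 without +dox replicate 1.

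The proteases did not pass the test. Mmp2 (chr8:95351227-95377319, plus strand), also called gelatinase A, cuts denatured and basement membrane collagen. It had 35.2 and 18.7 CPM in +dox replicates 1 and 2 and 19.7 and 21.8 CPM in −dox replicates 1 and 2. Its +dox libraries lay above and below both −dox libraries, and the log2 fold change was 0.37 ± 0.23 (SE, 95% interval −0.14 to 0.88), with an adjusted p of 0.452 in edgeR's quasi-likelihood test.

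Mmp14 (chr14:55050441-55060095, plus strand) is a membrane-bound protease that activates the Mmp2 proenzyme, for which it uses Timp2 as a bridge. It had 76.9 and 43.5 CPM in +dox replicates 1 and 2, against 47.8 and 48.0 CPM in −dox replicates 1 and 2. The log2 fold change was 0.33 ± 0.20 (SE, 95% interval −0.10 to 0.76), with an adjusted p of 0.430 in edgeR's quasi-likelihood test. The log2 fold change without +dox replicate 1 was −0.15 for Mmp2 and −0.14 for Mmp14, so that both turned direction with that library. The profile of Mmp2 over the 4 libraries was the nearest to that of Mmp14 among the 9 genes, with a root mean square difference of 0.06 between their log2 CPM after each gene's mean was taken off.

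None of the lysyl oxidases passed edgeR's quasi-likelihood test at 0.01 over the 4 libraries with no term for the replicate number. Their fitted changes lay on both sides of 0. Lox (chr18:52675714-52689477, minus strand), the founding member of the family, had 84.9 and 18.1 CPM in +dox replicates 1 and 2 and 21.4 and 14.1 CPM in −dox replicates 1 and 2. Only +dox replicate 1 was high, and +dox replicate 2 lay between the −dox libraries. The log2 fold change was 1.53 ± 0.48 (SE), the least precise of the 9, with an adjusted p of 0.108 in edgeR's quasi-likelihood test, and it was 0.02 without +dox replicate 1.

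Loxl1 (chr9:58135530-58161019, minus strand), which acts on elastic fibres, had 72.3 and 32.9 CPM in +dox replicates 1 and 2 and 25.3 and 23.2 CPM in −dox replicates 1 and 2. The groups did not overlap, and the log2 fold change was 1.11 ± 0.26 (SE, 95% interval 0.54 to 1.69). The adjusted p was 0.0433 in edgeR's quasi-likelihood test and 0.233 in DESeq2, and without +dox replicate 1 the log2 fold change was 0.44 with an adjusted p of 0.0997 in edgeR's test.

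Loxl2 (chr14:70009283-70095641, plus strand), which cross-links collagen IV of basement membranes, was the 1 gene of the 9 with a fitted change below 0. It had 38.5 and 18.8 CPM in +dox replicates 1 and 2 and 29.1 and 37.1 CPM in −dox replicates 1 and 2. The highest and the lowest libraries were both +dox, and the log2 fold change was −0.21 ± 0.25 (SE, 95% interval −0.76 to 0.34), with an adjusted p of 0.714 in edgeR's quasi-likelihood test. Leaving out +dox replicate 1 gave −0.82 with an adjusted p of 0.000403 in edgeR's test, and leaving out +dox replicate 2 gave 0.22 with 0.585.

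**Figure D2:**
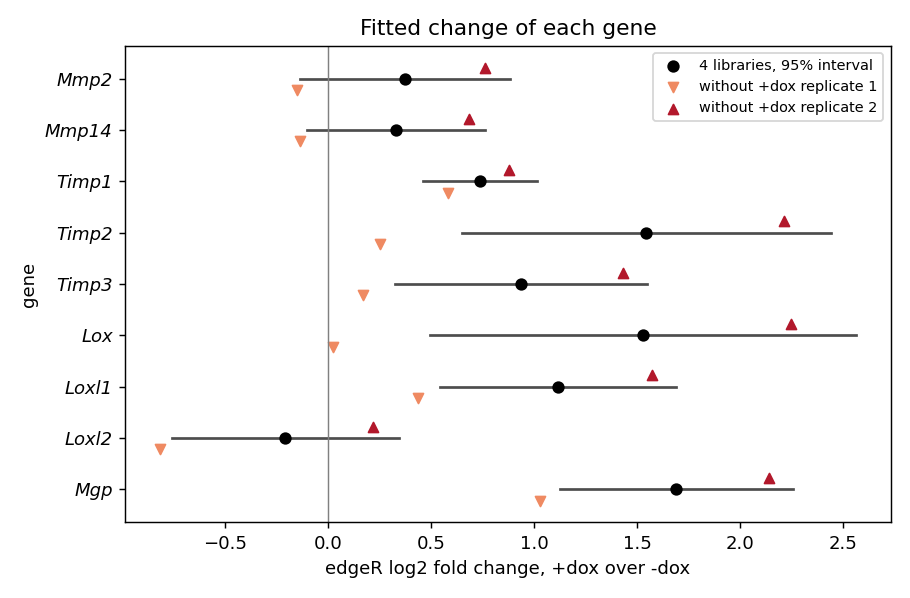
Fitted log2 fold change of each gene, +dox over −dox, from all 4 libraries (black points with 95% intervals) and with 1 of the +dox libraries left out (triangles). Without +dox replicate 1 every estimate moved down, to 1.03 for Mgp and to below 0 for Mmp2, Mmp14 and Loxl2.

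Levels of different genes were set beside each other per kilobase of transcript. Mgp was highest in both +dox libraries (172 and 79.5 CPM per kb) and Timp1 in both −dox libraries (50.4 and 55.5 CPM per kb). Timp1 and Mgp changed places between the groups, but in +dox replicate 2 they were at 79.2 and 79.5 CPM per kb and could not be ordered. Timp2 was at 122 CPM per kb in +dox replicate 1, above Timp1 at 97.3 CPM per kb, and was between 22.2 and 31.4 CPM per kb in the other libraries. Mmp14 was next to it, the highest of the proteases and oxidases, at 29.7 CPM per kb in +dox replicate 1 and 16.8 to 18.6 CPM per kb in the rest. Timp3, Loxl1, Mmp2, Lox and Loxl2 lay between 2.89 and 21.9 CPM per kb, and their order differed between libraries.

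The replicate numbers allow the dox effect to be read in each replicate, as the log2 ratio of CPM of +dox to −dox with a prior count of 2. With 1 library on each side these ratios have no error of their own and were not tested. In replicate 1 all 9 genes were higher with dox, with a median log2 ratio of 1.32, and 5 of them were over 2-fold higher, against 2.95% of expressed genes. In replicate 2 there were 6 genes above 0, with a median of 0.36, and 0 were over 2-fold higher, against 0.704% of expressed genes. The median over all expressed genes was −0.01 in replicate 1 and 0.00 in replicate 2.

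Mgp was at 2.20 in replicate 1 and 0.96 in replicate 2, the largest ratio of the 9 genes in both. Timp1 was at 0.95 and 0.51 in replicates 1 and 2, and Timp2, Loxl1, Lox and Timp3 were at 2.01, 1.51, 1.98 and 1.32 in replicate 1 and at 0.50, 0.50, 0.36 and 0.29 in replicate 2. The remaining genes were above 0 in replicate 1 and below it in replicate 2, with 0.83 and −0.22 for Mmp2, 0.69 and −0.14 for Mmp14, and 0.40 and −0.98 for Loxl2. For all 9 genes the ratio was larger in replicate 1, by a median of 1.05, while the median absolute difference over all expressed genes was 0.19. The difference between the replicates was at the 81.1 percentile of those genes for Timp1, the smallest of the 9, and at the 98.9 percentile for Lox, the largest.

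**Figure D3:**
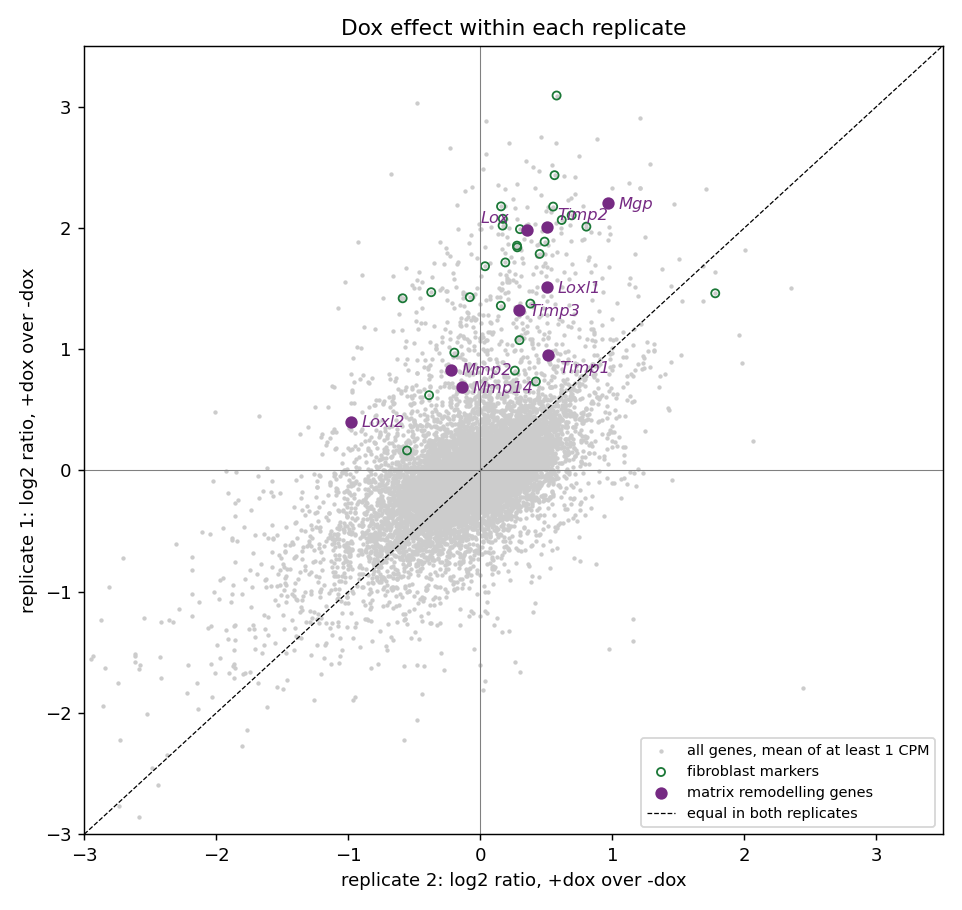
Log2 ratio of +dox to −dox CPM in replicate 2 (horizontal) and replicate 1 (vertical) for the expressed genes (grey, 10 of them outside the plotted range), fibroblast markers (green) and the 9 genes (purple). All 9 lie above the line of equal ratios, Mgp is farthest to the upper right, and Loxl2 is alone on the far left.

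Fibroblast markers were likewise highest, in sum, in +dox replicate 1. Of 30 markers, 28 were expressed, and 27 of these had a fitted change above 0, with a median of 1.30. In 19 of the 28 both +dox libraries lay above both −dox libraries and in 0 they lay below, against 26.1% and 27.7% of expressed genes. edgeR's quasi-likelihood test called 0 of the 30 at an adjusted p under 0.01, with 23 at an unadjusted p under 0.05, all higher. At that unadjusted level 8.48% of all genes tested were higher. DESeq2 called 1, Vim, and the markers Lum and Fap were below 1 CPM. The median within-replicate log2 ratio of the markers was 1.75 in replicate 1 and 0.28 in replicate 2, and their median fitted change was 0.34 without +dox replicate 1. Vim, the intermediate filament gene of mesenchymal cells, had 759 and 527 CPM in +dox replicates 1 and 2 and 361 and 429 CPM in −dox replicates 1 and 2. Thbs1, which encodes a secreted matrix glycoprotein, had 757 and 228 CPM with dox and 236 and 222 CPM without. The markers S100a6 and Tagln, also among the 4 highest per kilobase, changed by 0.80 and −0.17 on the log2 scale, and their adjusted p in edgeR's test were 0.0695 and 0.657. For the Y chromosome genes Ddx3y and Eif2s3y the log2 fold change was 1.71 and 1.37 and the adjusted p in edgeR's test was 0.148 and 0.0767.

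To set each gene beside the fibroblast markers, its CPM was expressed as a percentage of their summed CPM in the same library. Vim and Thbs1 made up 40.6% to 43.6% of that sum in each library, so the percentages lean on these 2 markers. The 9 genes together came to 27.8% of the fibroblast sum in +dox replicate 1 and 23.4% in +dox replicate 2, against 26.1% and 22.0% in −dox replicates 1 and 2, so on this scale +dox replicate 1 lay next to −dox replicate 1. On this scale 2 of the 9 genes, Mgp and Loxl1, were higher in both +dox libraries than in both −dox libraries, an arrangement that 0.546% of expressed genes had. The reverse held for 3 of the 9, Mmp2, Mmp14 and Loxl2, and for 69% of those genes. The fibroblast sum was itself higher in both +dox libraries, at 3736 and 1733 CPM against 1382 and 1511 CPM. A gene with unchanged CPM therefore falls on this scale, and the shares of 0.546% and 69% include that effect. With 2 libraries a group an exact permutation test, two-sided, cannot go below 0.333, so none was run on these percentages.

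Mgp came to 2.73% and 2.72% of the fibroblast sum in +dox replicates 1 and 2 and to 1.60% in both −dox libraries. The change was 0.77 on the log2 scale in each replicate, so the spread between the replicates seen in CPM was not seen relative to the marker sum. Loxl2 came to 1.03% and 1.08% with dox and to 2.10% and 2.45% without, a change of −1.03 in replicate 1 and −1.18 in replicate 2. Relative to the median ratio of the markers, a reference chosen after the data were seen, Mgp was at 0.45 and 0.68 and Loxl2 at −1.35 and −1.26 in replicates 1 and 2. With that reference Mgp did differ between the replicates, and replicate 2 had the larger ratio. Timp2 was at 11.8% and 6.56% of the fibroblast sum with dox and at 7.96% and 5.31% without, and its groups overlapped. Loxl1 had 1.94% and 1.90% with dox and 1.83% and 1.53% without, a shift of 0.08 in replicate 1 and 0.31 in replicate 2, which became −0.24 and 0.22 relative to the median ratio of the markers, so its direction in replicate 1 depends on the reference. The direction of the other 8 genes was the same with both references in each replicate. Timp1 turned direction between the replicates, from −0.48 in replicate 1 to 0.32 in replicate 2. Mmp14 was lower relative to the markers in both, at −0.75 and −0.34, as was Mmp2 at −0.60 and −0.42. The part of the fibroblasts in the change of any of the 9 genes was not tested.

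**Figure D4:**
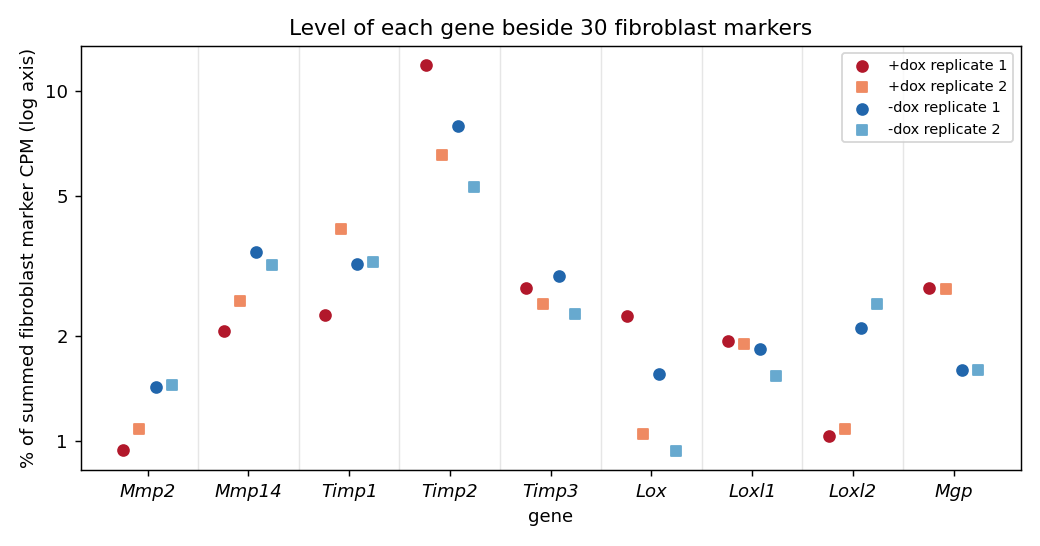
CPM of each gene as a percentage of the summed CPM of 30 fibroblast markers (log axis) in the 4 libraries, with circles for replicate 1 and squares for replicate 2. Mgp is near 2.7% in both +dox libraries and at 1.60% in both −dox libraries, and Loxl2 is lower in both +dox libraries.

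Other cell types that make some of these proteins were read from their own markers. Of 10 chondrocyte and osteoblast markers, 1 was called higher by edgeR's quasi-likelihood test, against 0.0798% of all genes tested. It was Spp1, which encodes osteopontin, with a log2 fold change of 0.61 and an adjusted p of 0.00667 in that test. The osteoblast genes Sp7 and Ibsp were below 1 CPM. The 10 chondrocyte and osteoblast markers summed to 724 and 790 CPM with dox and to 560 and 652 CPM without. Most of each sum came from Spp1 and Alpl, so the sums say little of the other markers. Of the 8 expressed markers of this list, 5 had a fitted change above 0, with a median of 0.06. Spp1 had 412 and 402 CPM with dox and 245 and 288 CPM without. Alpl had 236 and 321 CPM with dox and 248 and 291 CPM without, a log2 fold change of 0.05 with an adjusted p of 0.887 in edgeR's test. The 7 smooth muscle markers summed to 72.8 and 51.2 CPM with dox and to 47.6 and 45.3 CPM without. The 8 endothelial markers summed to 34.3 and 35.3 CPM with dox and to 50.7 and 38.6 CPM without, with Cdh5, Emcn and Cldn5 below 1 CPM. The 7 macrophage markers in the tables summed to 41.1 and 40.5 CPM with dox and to 26.5 and 19.2 CPM without. Most of each sum came from Cd68, a lysosomal protein gene. The other expressed one, Itgam, had 3.73 and 2.93 CPM with dox and 1.70 and 1.71 CPM without. Its log2 fold change was 0.96, with an adjusted p of 0.0992 in edgeR's test. Adgre1 was at 0 in all libraries, and Ptprc, Csf1r, Lyz2 and Aif1 were below 1 CPM. Of the 10 extraembryonic endoderm markers, 3 were called lower by edgeR's test, Foxa2, Sox17 and Gata6, against 0.519% of all genes tested. The list was split, since 4 of its 8 expressed markers had a fitted change above 0, among them Dab2, the highest per kilobase, at 0.22. In 2 of the 8 both +dox libraries lay above both −dox libraries and in 4 they lay below both. The 10 markers of that lineage summed to 47.1 and 49.7 CPM with dox and to 65.2 and 72.5 CPM without.

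The wider matrix remodelling genes were taken from 7 lists with 101 symbols, of which 97 were in the tables, 93 were tested and 74 were expressed. edgeR's quasi-likelihood test called 0 of them at an adjusted p under 0.01, with 33 at an unadjusted p under 0.05 (17.8% of all genes tested were). DESeq2 called 7, of which 5 were higher and 2 lower, against 0.853% and 1.86% of the genes to which it gave an adjusted p. Their median log2 fold change was 0.18, with 0.24 in replicate 1 and −0.08 in replicate 2, and both +dox libraries lay above both −dox libraries in 21 and below both in 19 of the 74, near the 26.1% and 27.7% of expressed genes. How many of them were called depended on which +dox library was left out, and each of those fits keeps 1 +dox library.

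Among the relatives of the lysyl oxidases, Loxl3 had 24.5 and 10.9 CPM in +dox replicates 1 and 2 and 5.96 and 6.77 CPM in −dox replicates 1 and 2. Its log2 fold change was 1.48 ± 0.31 (SE), with an adjusted p of 0.0266 in edgeR's quasi-likelihood test and 0.000950 in DESeq2, while Loxl4 was at −0.06. The other MMPs had a median of −0.05 over 13 expressed genes, and 1 of these 13 had both +dox libraries above both −dox libraries. That gene was Mmp3, or stromelysin 1, with 18.1 and 10.8 CPM with dox, 4.55 and 7.81 CPM without and an adjusted p of 0.0424 in edgeR's test. Mmp16 and Mmp19 had log2 fold changes of 1.17 and 0.64 and were below 0 in replicate 2.

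Of 6 other expressed genes listed with the protease inhibitors, 4 had a fitted change above 0. The list includes Serpinf1, a secreted serpin that binds collagen but does not itself inhibit proteases. Serpinf1 had a log2 fold change of 1.49 and the thrombin inhibitor Serpine2 one of 0.80, with adjusted p of 0.0325 and 0.0296 in edgeR's test. A2m and Reck, named after their values were seen, were at −0.69 and −0.35, each with both +dox libraries below both −dox libraries. Their adjusted p were 0.0322 and 0.398 in edgeR's test and 0.00453 and 0.460 in DESeq2. The ADAM and ADAMTS proteases had both +dox libraries under both −dox libraries in 9 of 20 expressed genes, with a median of −0.25. This arrangement held for 27.7% of all expressed genes. The list had the most genes below of the wider matrix lists, but it was also the list with the most expressed genes. Adamts15, a proteoglycan-cleaving protease, had a log2 fold change of −1.27 with an adjusted p of 0.0372 in edgeR's test, Adamts20 was at −1.14, and Adamts5 was at 2.07 with +dox replicate 1 alone high.

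Of 13 genes of the plasminogen system, cathepsins and other matrix-degrading enzymes, 12 had a fitted change above 0. The collagenolytic cathepsin Ctsk had 2.93 and 0.963 CPM with dox and 0.524 and 0.239 CPM without, with an adjusted p of 0.0504 in edgeR's test. Hyal1, a hyaluronidase, was at 12.4 and 12.6 CPM with dox and 6.38 and 6.89 CPM without, with log2 ratios of 0.95 and 0.86 in replicates 1 and 2. Prss23 was at 29.4 CPM in +dox replicate 1 and 7.36 to 10.3 CPM in the rest. Among the collagen-modifying genes, the prolyl hydroxylase P4ha1 and the transglutaminase Tgm2 were at −0.73 and −0.70 on the log2 scale, and edgeR's test gave them adjusted p of 0.0508 and 0.0917, while Tll1 was at 0.70 with 0.391.

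Mgp needs the vitamin K cycle for its carboxylation. Vkorc1, the reductase that regenerates vitamin K, had 28.3 and 31.8 CPM with dox and 21.1 and 23 CPM without, with a log2 fold change of 0.45 and an adjusted p of 0.124 in edgeR's test. The carboxylase Ggcx, named after its values were seen, had 15.0 and 15.1 CPM with dox and 13.6 and 17.4 CPM without. Gas6 was at a log2 fold change of 0.20, and Postn, which is also one of the fibroblast markers, was at 2.03 with an adjusted p of 0.0407 in edgeR's test and 8.13 CPM in +dox replicate 1 against 0.884 to 2.71 CPM in the others.

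The likeness of profiles was measured as the root mean square difference of log2 CPM over the 4 libraries, with each gene's mean taken off, against 13902 other expressed genes. The mean profile of the 9 genes was nearest to that of Adamts2, the procollagen N-propeptidase, at 0.03, followed by Fads3, Ltbp3, Adgrg2 and Meis2 at up to 0.06. Mgp was nearest to C1qtnf5 and Mfrp, which overlap and had identical values, at 0.10, and then to Cd248, a fibroblast and pericyte surface protein, 3110039I08Rik and Hoxa10 at up to 0.11. Named after their values were seen were Ddx3y and Plaur. The gene nearest to Lox was Ddx3y of the Y chromosome, at 0.08, and the nearest to Timp1 among those with more than 30 CPM was Plaur, the urokinase receptor, at 0.04.

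Within the 9 genes the profiles fell close together for Timp2 and Lox, at 0.11, and for Timp3 and Loxl1, at 0.12. Loxl2 and Mgp were the pair farthest apart, at 0.94. These are descriptions over 4 libraries that share +dox replicate 1.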

How the data were processed

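Polyadenylated RNA of the 4 libraries was sequenced with a directional kit. The authors' reads were trimmed (cutadapt), mapped against mm9 (TopHat2), freed of PCR duplicates and, where unique, assigned to exons by HOMER. The deposited values are raw counts per gene without normalization, in 1 table per replicate number. Tool versions and whether strand was used are not given in the sources used here. Samples were grouped by their labels.

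Both tables were joined by gene symbol, since 547 genes have another transcript in the second table. Every gene with a count of 1 or more in any library entered TMM scaling and edgeR's quasi-likelihood test (edgeR 4.0.16 under R 4.3.3, package defaults, no block), with Benjamini-Hochberg adjustment over all 20044 genes and a threshold of 0.01. Standard errors were taken from the test statistic. DESeq2 1.42.0, the tool of the study, was an alternative, with likelihood ratio tests, deviances adjusted for small counts, a replicate block, other scalings, filters and thresholds, other prior counts and leaving out each library. Replicate libraries of a group were not copies, since chi-square divided by its degrees of freedom was 19.2 with dox and 13.2 without. The script for the test was tested on simulated data. Exon overlaps came from GENCODE M1 on NCBIM37, and promoter windows, found for 4 of the 9 genes, from RefSeq.

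The 9 genes, the matrix lists and the marker lists were chosen with earlier results of these data known, so their counts are descriptions. Named were all 9 genes, of each wider matrix list the genes called by edgeR and up to 3 with the largest log2 fold change at a mean of at least 1 CPM, the highest markers per kilobase, Ctcf, and the 5 genes most like Mgp and most like the mean of the 9. Absent or called markers and any other gene were named after their values were seen. The values of 1 gene that this rule names are not reported here. ChIP-seq and Hi-C data were not analysed here.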

Additional observations from a re-analysis of the deposited data

How the results depend on the processing

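The direction of the fitted change held for Timp1, Timp2, Timp3, Lox, Loxl1 and Mgp under every alternative run. It turned for Mmp2 and Mmp14, which ranged from −0.15 to 0.76 and from −0.14 to 0.68 between the fits without +dox replicate 1 and without +dox replicate 2, and for Loxl2, which ranged from −0.82 to 0.22. The count of the 9 genes called was 1 by DESeq2, 2 by edgeR's likelihood ratio test and with DESeq2's size factors, 3 at a threshold of 0.05, and 0 with deviances adjusted for small counts (5 at an unadjusted p under 0.05), with total counts as the scaling and with edgeR's filterByExpr. Over all genes, where edgeR's quasi-likelihood test called 120, the count was 375 by DESeq2, 457 by the likelihood ratio test, 0 with adjusted deviances (3254 at an unadjusted p under 0.05), 11 with filterByExpr and 573 at 0.05. Of the wider matrix lists, DESeq2 called 7, the likelihood ratio test 8 and the threshold of 0.05 gave 10. Leaving out 1 library at a time gave 0 to 992 calls over all genes, 0 to 8 of the 9 genes, 0 to 23 of the wider lists and a median log2 fold change of the 9 genes from 0.17 (without +dox replicate 1) to 1.43 (without +dox replicate 2). Both fits without a −dox library called 0 genes. The cause was not tested.

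With the replicate block, edgeR's test called 786 genes over all, 6 of the 9 (Timp1, Timp2, Timp3, Lox, Loxl1 and Mgp) and 15 of the wider lists, and DESeq2 with the replicate block called 264, 1 (Timp1) and 4. The labels do not say what a number shares, so the main test had no block, while the within-replicate ratios do pair libraries by number. The correlation of deviations of same-numbered libraries was 0.20 over 13911 genes, and 2 pairs cannot show what they share. Each of the 9 genes had at least 355 reads per library, and 2 libraries a group limit the precision.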
